A study of Mus musculus with 12 samples.

Results

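Fat from knockout mice given CL was compared with fat from wild-type littermates given saline, which sets the stimulated knockout tissue against the unstimulated normal level. The comparison used the 3 libraries titled ko-CL and the 3 titled wt-saline, 6 of the 12 libraries sequenced. The knockout removed CDK7 from adipose tissue, and the tissue was perigonadal white fat of C57BL/6 mice aged 9 weeks. CL or saline was given for 7 days and the mice were killed at zeitgeber time 9. Each library pooled RNA of 2 mice of one genotype and treatment, 250 ng from each, so each group of 3 libraries stands for 6 mice. The labels abbreviate the drug as CL, the usual short form in this field for an agonist of the beta-3 adrenergic receptor. The sources used here name neither the Cre line behind the deletion nor the sex of the mice. The genotype field contradicted the title in 6 of the 12 libraries, where it followed the treatment, so groups were taken from the titles. Genotype and treatment both differ in this comparison. The other 2 groups, saline-treated knockout and CL-treated wild type, are given beside it to show the steps in between.

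White fat stores triglyceride and secretes adipokines. Beta-3 adrenergic stimulation raises cyclic AMP in adipocytes, which turns on lipolysis and, over days, induces mitochondria and genes of brown fat, including the uncoupling protein UCP1. CDK7 is the kinase of the CDK-activating complex, with cyclin H and MAT1, and as part of the general transcription factor TFIIH it phosphorylates RNA polymerase II at promoters.

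The targeted gene was checked first. Cdk7 (chromosome 13, 100702631 to 100730939, minus strand, GRCm38) was measured at 29.7, 30 and 29.3 CPM (counts scaled to a library of 1000000) in the saline wild type and at 23.6, 19.5 and 18.1 CPM in the CL-treated knockout. It was at 11, 11.7 and 11.5 CPM in the saline knockout and at 32.2, 30.4 and 35.4 CPM in the CL-treated wild type. Every CL-treated knockout library lay below every saline wild-type library and above every saline knockout library. Across the 6 compared libraries the log2 fold change was -0.54 ± 0.09 (SE, adjusted p = 0.000295, edgeR's quasi-likelihood test). An exact two-sided permutation test of 3 against 3 libraries gave p = 0.1, the smallest p that this design allows. Deletion was measured only in whole tissue, so residual Cdk7 reads from cells outside the deleted compartment and from adipocytes cannot be told apart. Of its partners, Ccnh (cyclin H) was at the saline wild-type level (log2 fold change 0.03 ± 0.09) and Mnat1 (MAT1) was slightly below it (-0.26 ± 0.07, adjusted p = 0.0103), a call that was lost with library-size scaling alone (-0.19, adjusted p = 0.0548).

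The libraries held 21892817 to 27985019 reads counted to genes, and 16554 genes passed the filter on low counts. Reads of those mitochondrially encoded genes that hold counts were 4.76% ± 0.299 (SD, n = 3) of counts in the saline wild type and 4.01% ± 0.438 in the CL-treated knockout, against 9.97% ± 0.435 in the CL-treated wild type. CL-treated knockout library 1 stood apart from libraries 2 and 3 in most adipocyte, lipid and mitochondrial lists, where it was lower, and in the macrophage markers, where it was higher. Saline wild-type library 1 carried reads of duct epithelium that libraries 2 and 3 carried little of, such as Mmp7 at 12.5, 0 and 0.641 CPM. In bulk tissue, fewer cells of a type and less RNA per cell cannot be told apart.

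Each gene was placed by its level in the CL-treated knockout. A gene was above or below the saline wild type when its adjusted p was under 0.05, and at that level when it was not called and the 90% interval of its fold change lay within 1.5-fold in either direction. The rest were undetermined. No size was asked of a called gene, so a gene above or below can differ by less than 1.5-fold. Of all genes tested, 26.4% were above, 24.2% below, 30.3% at the level and 19.1% undetermined, and the median log2 fold change was 0.00222. The 3 and 3 libraries did not overlap for 58.4% of genes. In the saline knockout against the saline wild type, 7.99% of genes were higher and 6.45% lower. The 4 gene domains described here hold 516 tested genes, of which 95 were above, 218 at and 167 below the saline wild-type level, with 36 undetermined. Adipocyte genes ended below normal in 57 of 82, with 13 at and 8 above and a median log2 fold change of -0.76. Mitochondrial genes ended at normal in 146 of 229, with 34 above and 40 below and a median of 0.000357. Lipid genes were spread over 40 above, 46 at and 59 below of 159 (median -0.16), and thermogenic genes over 22 above, 16 at and 26 below of 78 (median 0.04).

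**Figure D1:**
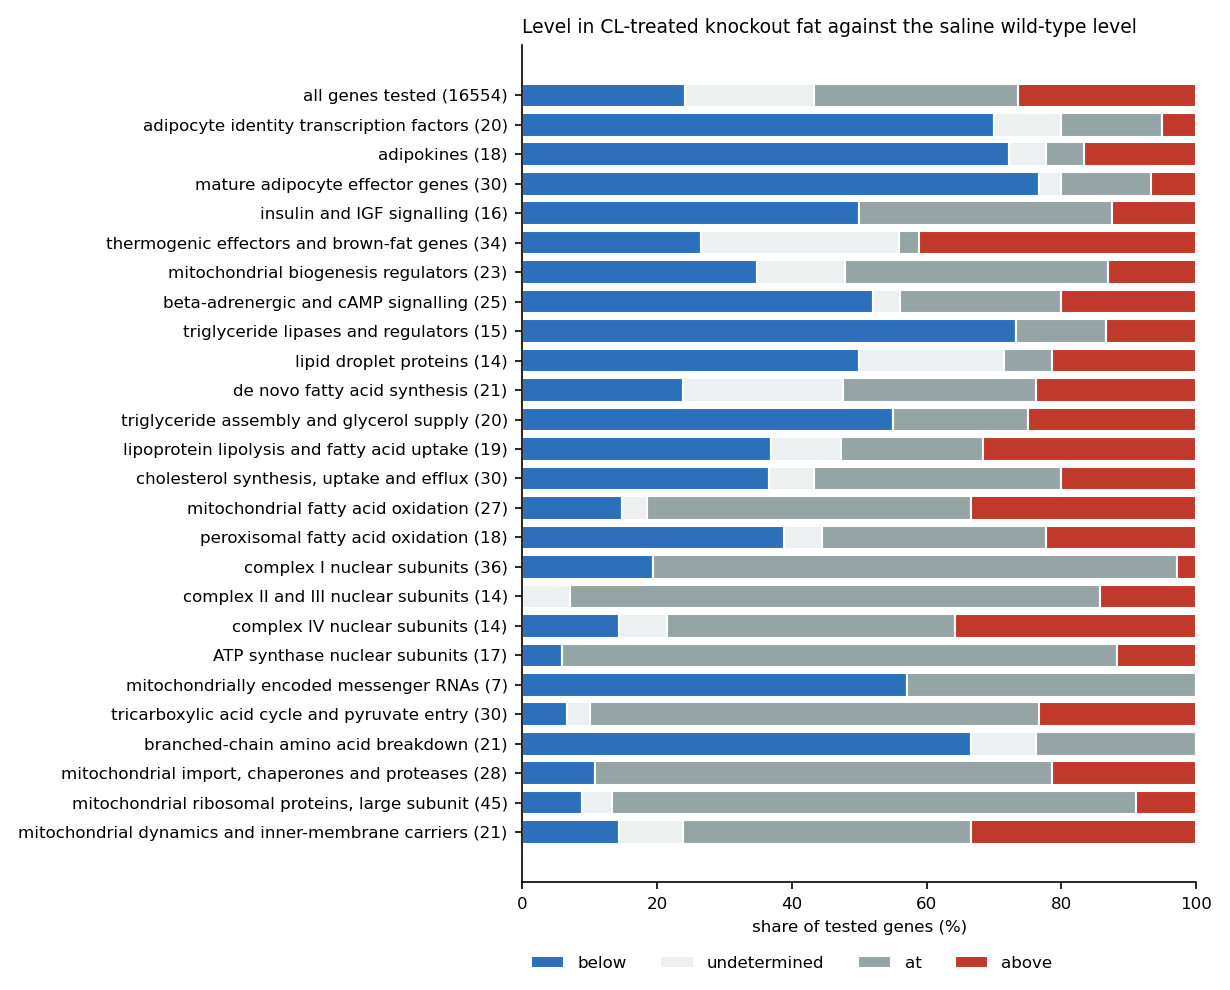
Share of the tested genes of each list (number in brackets) that were below, undetermined, at or above the saline wild-type level in CL-treated knockout fat, in percent, with all 16554 tested genes as the first bar. The mature adipocyte list is mostly below (23 of 30) and the complex I list mostly at the level (28 of 36).

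The number of mitochondrial genes above normal depended on single libraries. It was 34 with all libraries, 63 without CL-treated knockout library 1, 19 without library 2, 17 without library 3 and 20 without saline wild-type library 1. The adipocyte genes above normal were 8, and 5 without CL-treated knockout library 3. The median adipocyte gene lay at -0.98, -0.64 and -0.72 log2 units from the saline wild-type mean in CL-treated knockout libraries 1, 2 and 3, and the median mitochondrial gene at -0.22, 0.09 and 0.07. The median lipid gene lay at -0.35, -0.10 and -0.04, and its fitted median of -0.16 was -0.07 without CL-treated knockout library 1 and -0.09 with library-size scaling alone. The fitted median of thermogenic genes was -0.02 without CL-treated knockout library 2 and 0.10 with library-size scaling alone. The adipocyte drop was therefore present in each library, while the mitochondrial median was below normal in library 1 and slightly above it in libraries 2 and 3.

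**Figure D2:**
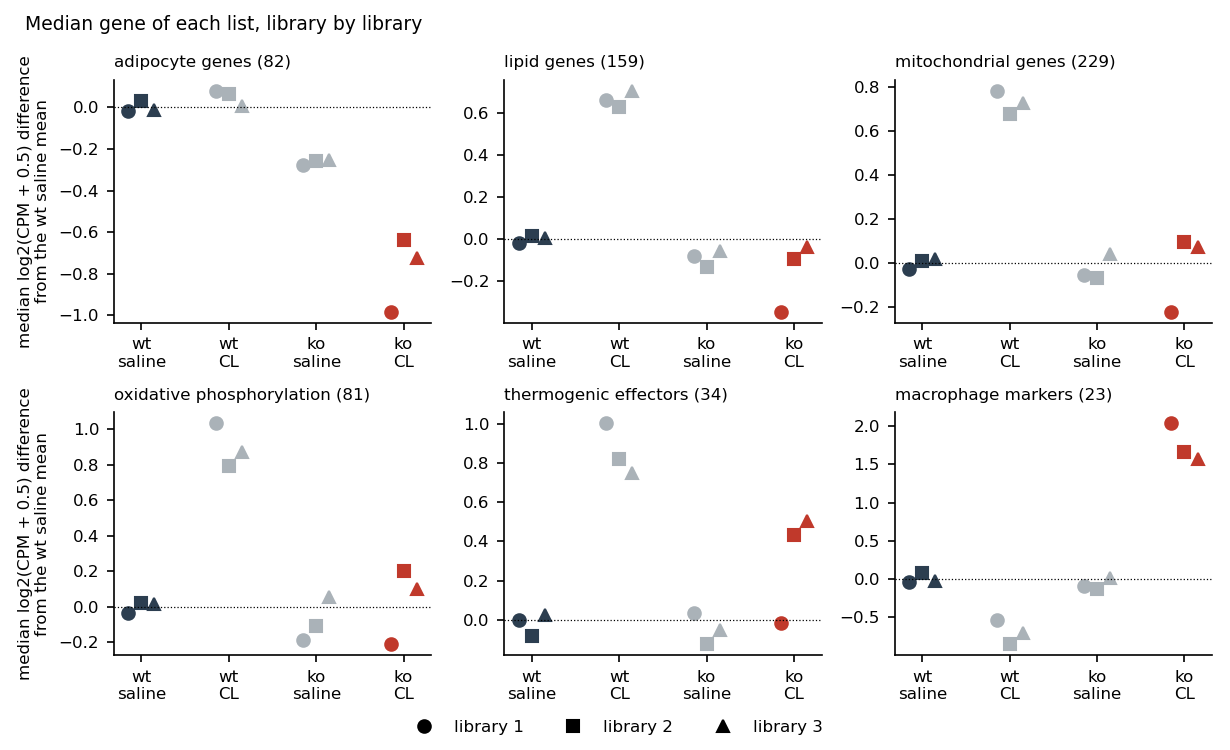
Median over the genes of each list of the difference in log2(CPM + 0.5) from the saline wild-type mean, with 1 point per library in each of the 4 groups (wt and ko with saline or CL) and the number of genes in brackets. The CL-treated knockout points sit below 0 for adipocyte genes and near 0 for mitochondrial genes, while the CL-treated wild-type points are near 0 for adipocyte genes and between 0.67 and 0.78 for mitochondrial genes.

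Adipocyte transcription factors ended lower in 14 of 20, with 3 at and 1 above normal (median log2 fold change -0.42). Pparg, the nuclear receptor that maintains adipocyte identity, was at 312, 308 and 334 CPM in the saline wild type and 169, 239 and 236 CPM in the CL-treated knockout. The ranges did not overlap, and the log2 fold change was -0.57 ± 0.11 (adjusted p = 0.00108). Cebpa, its partner factor, was lower by 1.88-fold (log2 fold change -0.91 ± 0.10, adjusted p = 4.88e-06). Ebf1, another factor of adipocyte identity, was lower by 1.94-fold and the insulin-responsive factor Foxo1 by 1.61-fold. The exception was Srebf1, which drives genes of fatty acid synthesis, at 223, 232 and 208 CPM against 208, 446 and 419 CPM. Libraries 2 and 3 were about equally high and library 1 was within the wild-type range. Its log2 fold change was 0.70 ± 0.21 (adjusted p = 0.0152), and the call was lost without CL-treated knockout library 2 (adjusted p = 0.087), library 3 (0.0794) or saline wild-type library 3 (0.0517), and with only the 6 compared libraries (0.066). The liver X receptor gene Nr1h3 was at the normal level (96.3, 92 and 94.7 against 93.5, 107 and 105 CPM).

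Adipokines were below normal in 13 of 18. Adipoq, which encodes adiponectin (chromosome 16, 23146536 to 23158028, plus strand, GRCm38), was at 3004, 3386 and 3610.4 CPM in the saline wild type and 1073, 1465 and 1299.7 CPM in the CL-treated knockout. All 3 knockout libraries were under the lowest wild-type library, a 2.61-fold lower level (log2 fold change -1.38 ± 0.11, adjusted p = 4.89e-07). Lep, the satiety hormone leptin, was at 1075, 1175 and 1360.4 against 388, 316 and 381 CPM, 3.33-fold lower. Cfd, the serine protease adipsin of the complement system, was at 2956, 3142 and 3082 CPM in the saline wild type and 333, 553 and 487 CPM in the CL-treated knockout. No library overlapped and the level was 6.69-fold lower (log2 fold change -2.74 ± 0.23, adjusted p = 6.46e-07). Retn (resistin) was 3.59-fold and Rbp4 (retinol-binding protein) 3.73-fold lower. Metrnl, a secreted protein also made by immune cells, was higher, at 18.5, 22.2 and 17.9 against 96.9, 62 and 71.8 CPM (log2 fold change 1.98 ± 0.15), and Nampt was at the normal level (0.04 ± 0.09).

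The adipokines reached their low level by different steps. For Adipoq, the saline knockout differed from the saline wild type by a log2 fold change of 0.02 ± 0.11 and CL changed it within the knockout by -1.40 ± 0.11, while CL in the wild type gave -0.27 ± 0.11. Lep followed the same order of steps, with -0.06, -1.67 and -1.004. Retn was already lower in the saline knockout (-1.49 ± 0.16) and CL in the knockout gave -0.35 ± 0.16. For Cfd the steps were -1.38 ± 0.22 and -1.37 ± 0.22. The comparisons share libraries, so these steps are not independent of each other.

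Genes that carry out the work of a mature adipocyte were below normal in 23 of 30, and 19 of the 30 were at least 2-fold below, against 7.28% of all tested genes (median log2 fold change -1.27). Fabp4, the fatty acid carrier of the adipocyte cytosol, was at 10730, 11721 and 11832 CPM in the saline wild type and 3688, 5928 and 5590.3 CPM in the CL-treated knockout. Library 1 was the lowest and all 3 were under the wild-type range, a 2.25-fold difference (log2 fold change -1.17 ± 0.15, adjusted p = 2.25e-05). Pck1, the cytosolic phosphoenolpyruvate carboxykinase of glyceroneogenesis, was at 2831, 2565 and 2050.3 against 391, 381 and 306 CPM, 6.91-fold lower (adjusted p = 2.33e-08). Aoc3, an amine oxidase of the adipocyte surface, was 3.23-fold lower and Acvr1c, the activin receptor ALK7, 3.42-fold lower. The glucose transporter gene Slc2a4 (GLUT4) was not lower: it was at 198, 221 and 228 CPM against 140.3, 254 and 241 CPM, with library 1 under and libraries 2 and 3 over the wild-type range (log2 fold change -0.02 ± 0.18). Acsl1, which activates fatty acids, was also at the normal level (-0.09 ± 0.17).

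Fabp5 and Gpd1 were the 2 mature adipocyte genes above normal. Fabp5, a fatty acid carrier shared with macrophages, was at 292, 371 and 350.0 against 532, 682 and 729 CPM (log2 fold change 0.94 ± 0.13, adjusted p = 4.43e-05). Gpd1, glycerol-3-phosphate dehydrogenase, was at 1168, 1329 and 1160.4 against 1234, 2471 and 2407 CPM, with library 1 inside the wild-type range. Its call (log2 fold change 0.74 ± 0.21, adjusted p = 0.009) was lost without CL-treated knockout library 3 (0.57, adjusted p = 0.0522). Of the insulin and IGF pathway, 8 of 16 were below, 6 at and 2 above normal. The insulin receptor gene Insr was 1.53-fold lower, Pde3b, the phosphodiesterase through which insulin restrains lipolysis, 2.97-fold lower, and Akt1 1.61-fold higher.

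**Figure D3:**
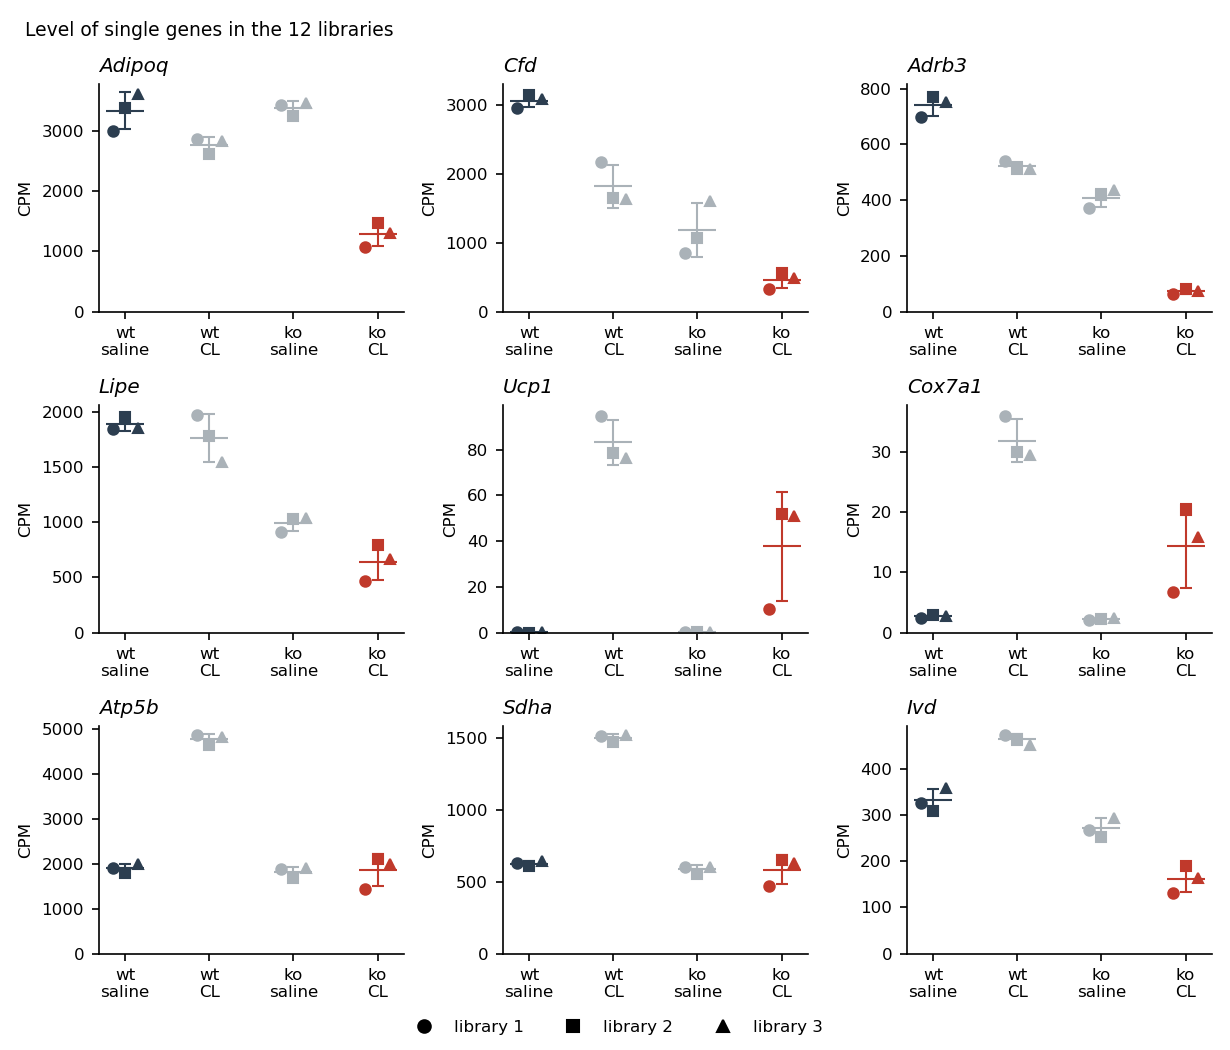
Level in CPM (vertical axis, from 0) of 9 genes in the 12 libraries, with 1 symbol per library and the mean ± SD (n = 3) of each group as a bar with whiskers. Adipoq, Cfd, Adrb3, Lipe and Ivd end below the saline wild type in the CL-treated knockout, Atp5b and Sdha at its level, and Ucp1 and Cox7a1 above it.

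In the beta-adrenergic pathway itself, 13 of 25 genes were below normal, 6 at and 5 above (median log2 fold change -0.28). Those below were 11 to 13 with 1 library left out. The largest difference was in Adrb3, the beta-3 adrenergic receptor through which CL acts (chromosome 8, 27225776 to 27250616, minus strand, GRCm38). It was at 698, 772 and 754 CPM in the saline wild type and 62.7, 82.6 and 73.8 CPM in the CL-treated knockout. The 3 knockout libraries lay close together, 10.1-fold under the wild type (log2 fold change -3.34 ± 0.11, adjusted p = 1.18e-09). The saline knockout stood at 372, 419 and 435 CPM and the CL-treated wild type at 541, 511 and 511 CPM. Both of those groups had more Adrb3 than any CL-treated knockout library, and CL within the knockout gave a log2 fold change of -2.48 ± 0.10 (adjusted p = 3.25e-09) against -0.51 ± 0.10 within the wild type. Downstream, the adenylyl cyclases Adcy5 and Adcy6 were 3.13-fold and 1.95-fold lower, while Adcy3 was 3.23-fold higher. The stimulatory G protein gene Gnas (717, 710.1 and 719 against 649, 652 and 649.7 CPM) and Prkaca, the main catalytic subunit of protein kinase A, were at the normal level, with log2 fold changes of -0.14 ± 0.07 and -0.11 ± 0.09. With DESeq2, Gnas was called below (-0.14, adjusted p = 0.00992).

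Thermogenic effectors ended above normal in 14 of 34, below in 9, at the level in 1 and undetermined in 10. The median log2 fold change was 0.36, and 0.22 without CL-treated knockout library 2. By library, the median effector lay at -0.01, 0.43 and 0.50 log2 units from the saline wild-type mean in CL-treated knockout libraries 1, 2 and 3. At least 2-fold above were 9 of the 34, against 10.3% of all tested genes. Ucp1 (chromosome 8, 83290352 to 83298452, plus strand, GRCm38) was at 0.339, 0 and 0.249 CPM in the saline wild type and 10.2, 51.9 and 51 CPM in the CL-treated knockout. It was nearly silent in the first group and present in all 3 libraries of the second, with library 1 the lowest (log2 fold change 7.52 ± 0.76, adjusted p = 3.16e-06). In the CL-treated wild type it was at 94.6, 78.5 and 76.6 CPM, and the knockout differed from the wild type under CL by a log2 fold change of -1.15 ± 0.40 (adjusted p = 0.0267). Elovl3, which elongates fatty acids in stimulated brown fat, was at 0.414, 0.28 and 0.676 against 13.8, 20.7 and 54.6 CPM (log2 fold change 5.97 ± 0.59, adjusted p = 2.5e-06). Under CL the knockout differed from the wild type by -2.22 ± 0.35 (adjusted p = 0.000131). Cox7a1, the muscle and brown-fat form of a complex IV subunit, was at 2.49, 2.96 and 2.74 against 6.69, 20.4 and 15.9 CPM, 5.25-fold higher (adjusted p = 3.03e-05).

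Other genes of the brown-fat program did not clear the unstimulated level. Cidea, a droplet protein of brown fat, was at 4.71, 7.04 and 11.6 against 3.12, 15.3 and 9.57 CPM with overlapping ranges (log2 fold change 0.26 ± 0.42, adjusted p = 0.639). In the CL-treated wild type it was at 91.8, 68.2 and 85.4 CPM, and the knockout lay under it by -3.13 ± 0.40 (adjusted p = 2.27e-05). Cox8b gave 0.73 ± 0.39 and was called above only without CL-treated knockout library 1 (1.07, adjusted p = 0.00974). The thyroid hormone deiodinase Dio2 gave 0.78 ± 0.31 (adjusted p = 0.0547), and was called above without CL-treated knockout library 1 (0.99, adjusted p = 0.0176) and also with DESeq2, with library-size scaling alone, with no filter on low counts and with only the 6 compared libraries. Ppargc1a, the coactivator PGC-1alpha that drives mitochondrial biogenesis, was below normal, at 12.2, 12.4 and 11.7 against 4.92, 7.58 and 9.83 CPM (log2 fold change -0.71 ± 0.18, adjusted p = 0.00467). The biogenesis regulators as a list held 3 above, 9 at and 8 below of 23, the last falling to 3 with library-size scaling alone, and to 5 with only the 6 compared libraries or without CL-treated knockout library 1, saline wild-type library 1 or saline wild-type library 3. The receptor Esrra was 1.36-fold higher, Tfam, the packaging factor of mitochondrial DNA, at the level (-0.08 ± 0.08), and the corepressor Nrip1 2.04-fold lower.

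Some genes on the thermogenic list are not confined to adipocytes. Gatm, an enzyme of creatine synthesis, was at 11, 13.1 and 11.4 against 82.3, 55.6 and 59.4 CPM, and CL in the wild type gave a log2 fold change of -0.66 ± 0.16. Tmem26, listed as a beige marker, was at 0.527, 0.4 and 0.498 against 5.23, 3.94 and 3.75 CPM, with 0.17 ± 0.30 for CL in the wild type. Both were highest in CL-treated knockout library 1, as were the macrophage markers, and their relation to these markers was not tested.

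Triglyceride lipases and their regulators were below normal in 11 of 15, with 2 at and 2 above (median log2 fold change -1.07). Lipe, hormone-sensitive lipase (chromosome 7, 25379527 to 25398710, minus strand, GRCm38), was at 1847, 1953 and 1855 CPM in the saline wild type and 464, 789 and 667 CPM in the CL-treated knockout. All knockout libraries were under 1847 CPM, the lowest wild-type value, and the level was 2.94-fold lower (log2 fold change -1.56 ± 0.16, adjusted p = 3.24e-06). Pnpla2, adipose triglyceride lipase, was 1.69-fold lower and its inhibitor G0s2 2.28-fold lower. Ces1d, a carboxylesterase of fat, was 3.38-fold lower. Abhd5, the coactivator of adipose triglyceride lipase, stayed at the normal level (0.19 ± 0.11) and was called above without CL-treated knockout library 1 (0.30, adjusted p = 0.00592). Lipa, the lysosomal acid lipase, went the other way, at 96.9, 104 and 96.2 against 1043, 599.5 and 748 CPM (8.06-fold higher, adjusted p = 1.14e-08).

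Droplet coat genes divided by member, with 7 of 14 below, 3 above and 1 at normal. Plin1, the perilipin of adipocyte droplets, was at 1367, 1346 and 1224 against 339.5, 619.9 and 534 CPM (2.64-fold lower, adjusted p = 2.47e-05), and Plin4 was 4.36-fold lower. Cidec, which fuses droplets into one large droplet, was 2.38-fold lower. Plin2, the perilipin of small droplets in many cell types, was at 428, 564 and 464 against 1507, 968 and 1439 CPM, 2.69-fold higher (log2 fold change 1.43 ± 0.18, adjusted p = 2.39e-05). CL gave a Plin2 log2 fold change of 1.46 ± 0.18 in the wild type and 1.41 ± 0.18 in the knockout.

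Of 21 fatty acid synthesis genes, 5 were above, 6 at, 5 below and 5 undetermined, shares near those of all tested genes (23.8% above and 23.8% below, against 26.4% and 24.2%). The count above was 3 without CL-treated knockout library 3 or saline wild-type library 3, and with only the 6 compared libraries. Fasn, fatty acid synthase, was at 9865, 11010 and 10920 CPM in the saline wild type and 3313, 6619 and 6329 CPM in the CL-treated knockout. The knockout range was wide and lay wholly below, 1.96-fold on the fitted scale (log2 fold change -0.97 ± 0.23, adjusted p = 0.00318). Scd1, the stearoyl-CoA desaturase, was 2.52-fold lower (adjusted p = 0.00017), Me1, the cytosolic malic enzyme, 2.22-fold lower, and Acss2, which makes acetyl-CoA from acetate, 3.86-fold lower. These 4 genes were already low in the saline knockout, by log2 fold changes of -1.27 for Fasn, -1.52 for Scd1, -1.34 for Me1 and -1.64 for Acss2. CL in the knockout gave 0.30 ± 0.23 for Fasn and 0.18 ± 0.21 for Scd1, and CL in the wild type 0.96 ± 0.23 and 1.07 ± 0.21. Upstream of Fasn, the citrate carrier Slc25a1 was at normal (434, 402 and 414 against 327, 431 and 488 CPM). ATP-citrate lyase Acly (0.16 ± 0.24) and acetyl-CoA carboxylase Acaca (-0.29 ± 0.21) were undetermined, each with its lowest value in CL-treated knockout library 1. Mid1ip1, an activator of acetyl-CoA carboxylase, was 2.09-fold above normal.

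Triglyceride assembly genes were below normal in 11 of 20, at in 4 and above in 5. Dgat2, which adds the last acyl chain, was at 2752, 2808 and 2509.7 against 628, 941 and 926 CPM, 3.23-fold lower (log2 fold change -1.69 ± 0.13, adjusted p = 3.21e-07). Dgat1, the other enzyme of this step, was 1.57-fold lower and Mogat1 4.35-fold lower, while Gpam, which adds the first acyl chain, was at the level (-0.16 ± 0.15). Fatty acid uptake genes held 6 above, 4 at and 7 below of 19. Lpl, lipoprotein lipase, was 1.42-fold lower (adjusted p = 0.000893), and Gpihbp1, which holds the lipase on capillary endothelium, 2.15-fold lower. Gpihbp1 is also on the list of endothelial markers, of which 17 of 20 were below normal, and its relation to the others was not tested. The scavenger receptor Cd36 was at the level (4875, 5066 and 4935 against 4682, 3776 and 4315 CPM, log2 fold change -0.22 ± 0.11). It was called below without CL-treated knockout library 1 (-0.32, adjusted p = 0.0176) and with DESeq2 (adjusted p = 0.0379). Apoe was 1.9-fold and the lipoprotein receptor Lrp1 1.88-fold higher.

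The cholesterol list held 6 above, 11 at and 11 below of 30. Abcg1, a sterol exporter, was at 21.4, 23.9 and 19 against 242, 190.0 and 200.5 CPM (9.84-fold higher, adjusted p = 3e-09). Abca1, which loads cholesterol on apolipoprotein A1, was 2.9-fold higher, Soat1, which esterifies cholesterol, 12.1-fold and Nceh1, a cholesteryl ester hydrolase of macrophages, 17.3-fold. Of the synthesis branch, Fdft1 (squalene synthase) was 2.14-fold and Pmvk 1.95-fold lower, and Hmgcs1 and Cyp51 were at normal (-0.18 ± 0.20 and 0.04 ± 0.16).

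Mitochondrial fatty acid oxidation was the lipid branch least often below normal, with 9 above, 13 at and 4 below of 27. The count above was 4 without CL-treated knockout library 2, and 5 without library 3 or with only the 6 compared libraries. The median log2 fold change was -0.07, and 0.04 without CL-treated knockout library 3. Hadha, a subunit of the trifunctional protein, was at 307, 322 and 315 CPM in the saline wild type and 444, 572 and 555 CPM in the CL-treated knockout. All 3 knockout libraries exceeded the wild type, by 1.66-fold (log2 fold change 0.73 ± 0.10, adjusted p = 3.24e-05). Cpt1a, the gate of fatty acid entry, was 1.6-fold higher (adjusted p = 0.0012), with its highest value in library 1. Acadm, medium-chain acyl-CoA dehydrogenase, was at the level (0.30 ± 0.16), and above it without CL-treated knockout library 1 (0.48, adjusted p = 0.000663). Pdk4, a brake on pyruvate oxidation that rises in fasting, was at 45.5, 56.7 and 47.5 against 49.6, 40.4 and 45.2 CPM, while the CL-treated wild type stood at 227, 261 and 242 CPM. The CL-treated knockout was under the CL-treated wild type by -2.43 ± 0.11 (adjusted p = 3.1e-09). Peroxisomal oxidation had 7 below, 6 at and 4 above of 18. Cat (catalase), which breaks down the hydrogen peroxide of this pathway, was 1.67-fold lower.

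**Figure D4:**
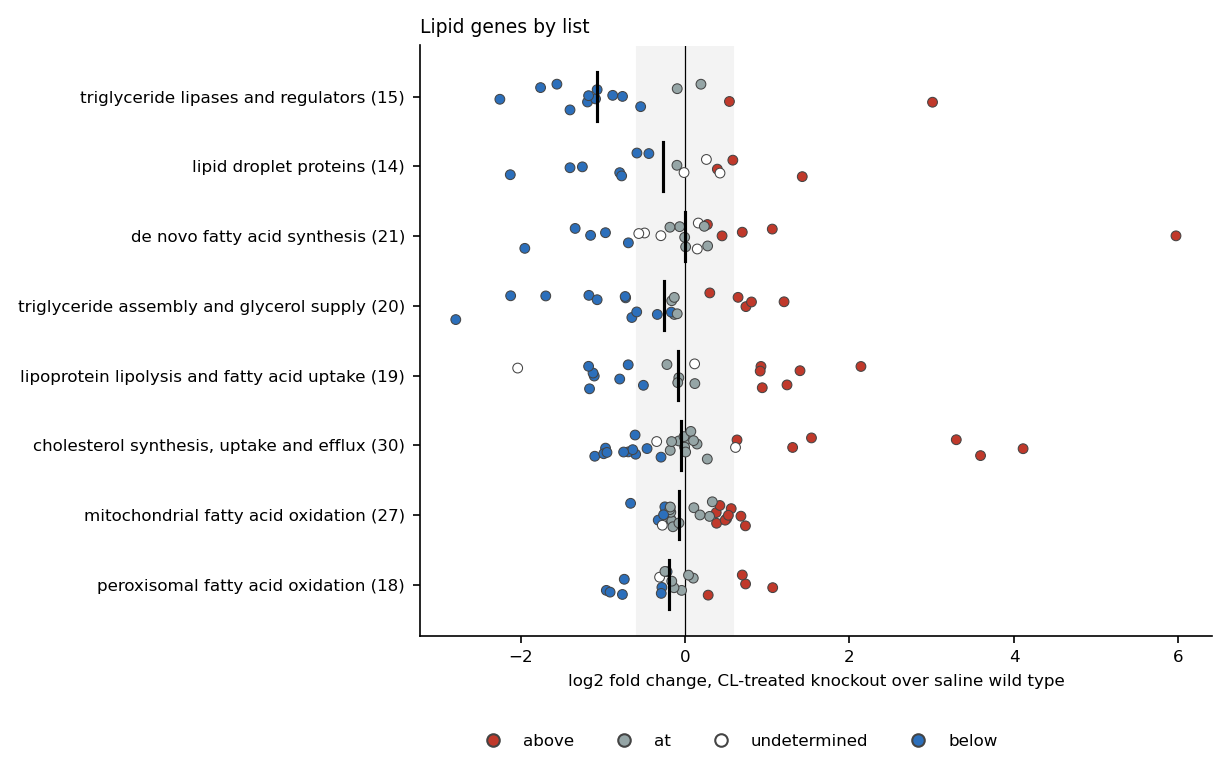
Log2 fold change of CL-treated knockout over saline wild type (horizontal axis) for every tested lipid gene, 1 point per gene, by list, with the list's median as a black bar and 1.5-fold either way shaded. The lipase list has its median at -1.07 and the mitochondrial oxidation list at -0.07, and the cholesterol list has members at both ends.

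Nuclear-encoded subunits of oxidative phosphorylation and cytochrome c ended at the unstimulated level in 59 of 81, with 10 above and 10 below (median log2 fold change 0.03). By complex, 28 of 36 complex I genes, 11 of 14 of complexes II and III, 6 of 14 of complex IV and 14 of 17 of ATP synthase were at normal. Without CL-treated knockout library 1, 5 of the 14 in complexes II and III were at normal, and 7 with library-size scaling alone. Atp5b, the catalytic beta subunit of ATP synthase (chromosome 10, 128083273 to 128090391, plus strand, GRCm38), was at 1903, 1794 and 2002 CPM in the saline wild type and 1449.6, 2117 and 2001 CPM in the CL-treated knockout. The ranges overlapped and the log2 fold change was -0.03 ± 0.12 (90% interval -0.25 to 0.18). In the CL-treated wild type Atp5b was at 4867, 4657 and 4818 CPM, and the CL-treated knockout lay under it by -1.37 ± 0.12 (adjusted p = 9.85e-07). Sdha, the flavoprotein of complex II, was at 628, 607 and 642 against 469, 655 and 629 CPM (-0.10 ± 0.11), and Ndufs1 of complex I gave 0.03 ± 0.12. Over the same 81 genes CL called 74 higher in the wild type, against 19.6% of all tested genes, and 18 higher in the knockout, against 27.2%.

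Of the subunits called above or below normal, 3 were at least 2-fold above it and 1 was at least 2-fold below. All complex I genes lay between log2 fold changes of -0.40 and 0.26, and those of complexes II and III between -0.18 and 0.44. The calls in these complexes were thus all for differences of less than 1.5-fold. Without CL-treated knockout library 1 the oxidative phosphorylation genes above normal numbered 25 in place of 10 and those below 5 in place of 10. Those above were 4 without library 2 or 3, 5 without saline wild-type library 1 and 6 without saline wild-type library 3, and those below were 3 and 5 without saline wild-type libraries 2 and 3. Library-size scaling alone gave 18 above and 5 below, and only the 6 compared libraries gave 5 above and 9 below. Cox7a2l, a gene linked to supercomplexes of complexes III and IV, was 1.32-fold higher (adjusted p = 6.24e-05) and Atpif1, the inhibitor of ATP synthase reversal, 2.33-fold higher. Atp5j was 1.22-fold and Ndufv3 1.31-fold lower. Cox4i2, the hypoxia form of a complex IV subunit, was at 4.44, 4.8 and 4.06 against 1.8, 2.37 and 2.46 CPM, 2.01-fold lower (adjusted p = 0.000974).

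Of the messages encoded by the mitochondrial genome itself, 4 of 7 tested were below normal, 3 were at it and 0 were above by edgeR's adjusted p, which was also 0 at an unadjusted p under 0.05 and with DESeq2. Those at normal were 1 without saline wild-type library 1. Those below were 3 with only the 6 compared libraries, and without CL-treated knockout library 1, saline wild-type library 2 or saline wild-type library 3. Whether they differ from the nuclear subunits was not tested. mt-Cytb, cytochrome b of complex III, was at 11740, 13325 and 12818 CPM in the saline wild type and 7354, 8537 and 9263 CPM in the CL-treated knockout. No library overlapped, and the level was 1.51-fold lower (log2 fold change -0.59 ± 0.12, adjusted p = 0.00112). mt-Nd4 and mt-Nd5 were 1.5-fold and 1.43-fold lower, while mt-Nd1 (0.10 ± 0.12) and mt-Co1 (-0.20 ± 0.13) were at normal. In the CL-treated wild type mt-Cytb was at 31051, 27614 and 32084 CPM. The other 6 mitochondrial messages, mt-Co2 among them, held 0 to 38 counts in all 12 libraries together and were not tested. They encode core subunits that mitochondria need, so these counts are not read as their expression, and the percentages of mitochondrial reads above leave these messages out almost wholly.

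Genes of the tricarboxylic acid cycle and pyruvate entry were at normal in 20 of 30, above in 7 and below in 2. Without CL-treated knockout library 1 there were 19 above and 10 at, and the count above was 4 without any of CL-treated knockout libraries 2 and 3 or saline wild-type libraries 1 and 3. Library-size scaling alone gave 11 above, and only the 6 compared libraries 4. Cs, citrate synthase, was at 781, 711 and 735 against 536, 879.7 and 853 CPM (0.03 ± 0.15), and was called above without CL-treated knockout library 1 (0.20, adjusted p = 0.0422). Mdh1, cytosolic malate dehydrogenase, gave -0.12 ± 0.12. Pdhx, a component of the pyruvate dehydrogenase complex, was 1.62-fold and Mpc2, of the pyruvate carrier, 1.4-fold higher. Pcx, pyruvate carboxylase, was at 1822, 1857 and 1878 against 998, 1517 and 1451 CPM, 1.4-fold lower (adjusted p = 0.0131).

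Branched-chain amino acid breakdown was the mitochondrial list most often below normal, in 14 of 21 genes with 5 at and 0 above by edgeR's adjusted p (median log2 fold change -0.51). DESeq2 also called 0 above, and 1 was above at an unadjusted p under 0.05. Ivd, isovaleryl-CoA dehydrogenase of leucine breakdown (chromosome 2, 118861954 to 118882909, plus strand, GRCm38), was at 327, 309.9 and 359 CPM in the saline wild type and 131, 189 and 165 CPM in the CL-treated knockout. The knockout libraries were all under the wild-type range, 2.06-fold lower (log2 fold change -1.04 ± 0.11, adjusted p = 6.2e-06). Bckdhb, a subunit of the branched-chain ketoacid dehydrogenase, was 1.9-fold lower, Aldh6a1 of valine breakdown 1.87-fold lower, and Pccb, of propionyl-CoA carboxylase, 1.8-fold lower. Bckdk, the kinase that switches the ketoacid dehydrogenase off, was at the level (70.2, 63.2 and 64.7 against 65.1, 70.2 and 67.6 CPM). CL called 18 of the 21 higher in the wild type, against 19.6% of all tested genes. Within the knockout it called 0 higher by edgeR's adjusted p, against 27.2%, and also 0 at an unadjusted p under 0.05. It called 15 of the 21 lower there, against 27.5% of all tested genes.

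The import, chaperone and protease genes were at normal in 19 of 28, with 6 above and 3 below, and the count above was 2 without CL-treated knockout library 2 or saline wild-type library 1 and 1 without CL-treated knockout library 3 or with only the 6 compared libraries. With no filter on low counts it was 2. Proteins of the large mitochondrial ribosomal subunit were at normal in 35 of 45. Hspd1, the matrix chaperonin, gave -0.08 ± 0.11 and Immt, which shapes cristae, -0.04 ± 0.11. Trap1, a matrix chaperone, was 1.43-fold lower. Among dynamics genes and carriers, 7 of 21 were above, 9 at and 3 below, the last 5 without CL-treated knockout library 3 or with no filter on low counts. Mfn2, which fuses outer membranes, was 1.44-fold and the mitophagy kinase Pink1 1.61-fold lower, while Opa1, which fuses inner membranes, was at the level (0.05 ± 0.08). Ucp2, an inner-membrane carrier abundant in immune cells, was at 107, 119 and 94.7 against 576, 407 and 452 CPM, 4.48-fold higher (adjusted p = 3.23e-07).

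**Figure D5:**
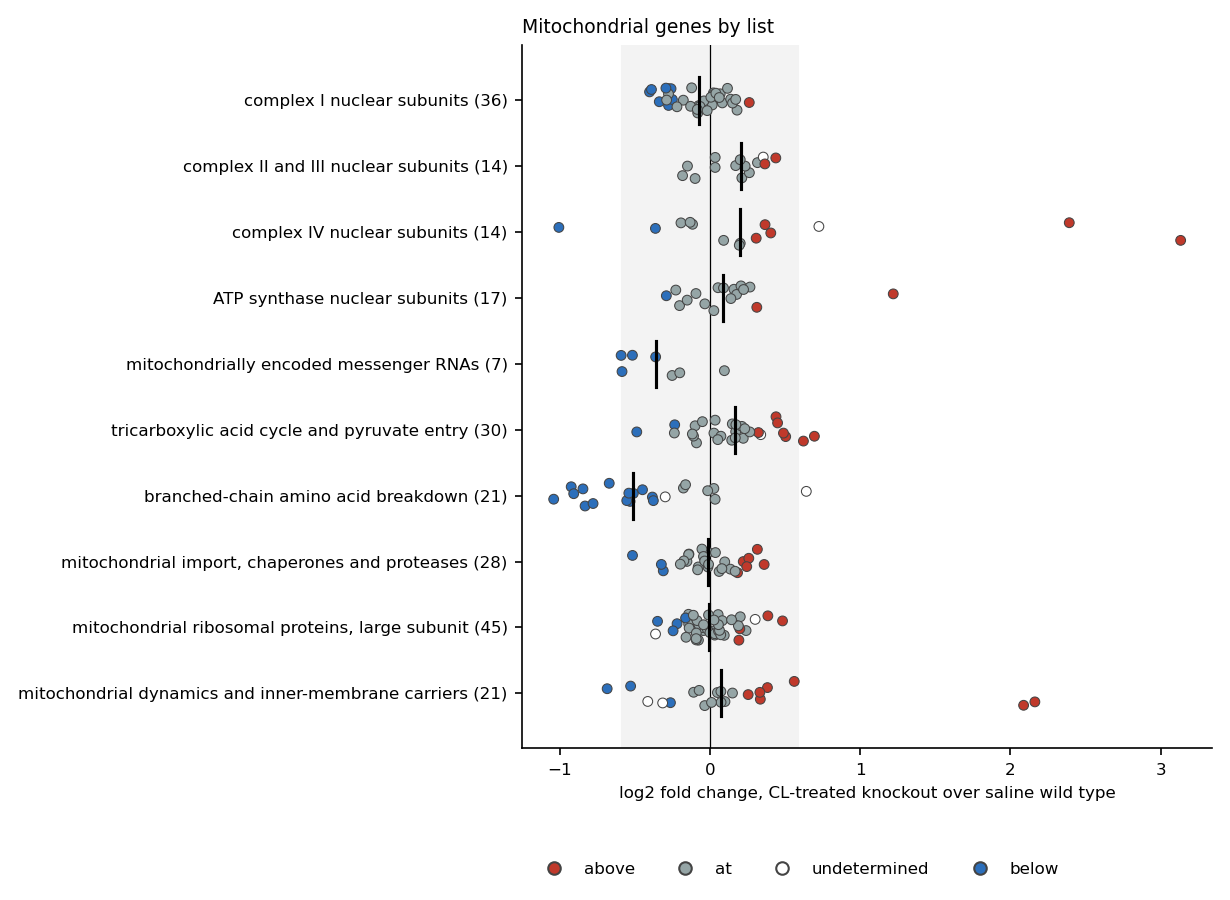
Log2 fold change of CL-treated knockout over saline wild type (horizontal axis) for every tested mitochondrial gene, 1 point per gene, by list, with the list's median as a black bar and 1.5-fold either way shaded. Most points lie in the shaded band, and the branched-chain amino acid list has its median at -0.51.

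Glucose genes leaned above normal, with 10 above, 7 at and 2 below of 22 (median log2 fold change 0.30). The shares were 45.5% above and 9.09% below, against 26.4% and 24.2% of all tested genes. The median glucose gene lay at 0.12, 0.30 and 0.40 log2 units from the saline wild-type mean in CL-treated knockout libraries 1, 2 and 3. Pkm, pyruvate kinase, was 1.72-fold and Gpi1 1.61-fold higher. Aldoa was at the level (-0.07 ± 0.14). Pfkfb3, which makes the activator of phosphofructokinase, was at 1322, 1231 and 1006 against 336, 416 and 366 CPM, 3.18-fold lower (adjusted p = 1.07e-07).

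The 12 largest increases and 12 largest decreases were named by size among protein-coding genes with at least 5 CPM in a group and no overlap between libraries. Of those far above normal, Gpnmb, Spp1 and Atp6v0d2 are known from lipid-laden macrophages. Gpnmb was at 14.2, 14.3 and 18.3 CPM in the saline wild type and 3901, 2329 and 3249 CPM in the CL-treated knockout. The groups were far apart, with a log2 fold change of 7.66 ± 0.45 (adjusted p = 2.52e-08). Atp6v0d2, a lysosomal proton pump subunit, gave 7.62 ± 0.44 and Spp1 (osteopontin) 6.51 ± 0.39. The others were Myh15 (8.96), Tm4sf19 (7.77), Olfr111 (7.63), Hmga2 (6.86), Vsig8 (6.81), St18 (6.05), Gdf3 (6.04), Ucp1 and Elovl3. Of those far below, Sfrp5, an adipokine that binds Wnt ligands, was at 21.1, 31.8 and 32.3 against 1.18, 0.501 and 0.56 CPM (37.4-fold lower, adjusted p = 1.76e-07), and Nnat was 23.2-fold lower. Both were also low in the CL-treated wild type, by log2 fold changes of -5.92 ± 0.44 and -5.02 ± 0.27. The other decreases were Prr32 (-4.47), Alb (-4.09), Timp4 (-3.96), Golga7b (-3.95), Acta1 (-3.55), Dcst1 (-3.55), Adrb3, Acsm3 (-3.28), Grb14 (-3.25) and Retnla (-3.19). Acsm3 and Golga7b were already low in the saline knockout (-2.80 ± 0.20 and -2.25 ± 0.31).

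Markers of other cell types were placed in the same way. Macrophage markers were above normal in 19 of 23 (median log2 fold change 1.78), with summed levels of 2770.0 to 2822 CPM in the saline wild type and 11555 to 15746 CPM in the CL-treated knockout. Adgre1, the F4/80 antigen, was at 65.7, 71.6 and 64.6 against 1007, 620.4 and 674 CPM (log2 fold change 3.51 ± 0.16, adjusted p = 4.5e-09), highest in library 1. The 3 macrophage markers below normal were Lyve1 and Cd163 of resident macrophages (4.99-fold and 1.99-fold lower) and the chemokine receptor gene Ccr2. The Ccr2 call was lost with library-size scaling alone (-0.21, adjusted p = 0.0691) and without saline wild-type library 2 (-0.26, adjusted p = 0.06). Mrc1 and Maf, also on the list, were not called below. Markers of lipid-associated macrophages were above normal in 14 of 16 (median 3.37), with sums of 3752 to 4198 CPM and 16680 to 24109 CPM. Trem2, the receptor that defines these cells, was at 4.97, 5.64 and 5.09 against 345, 221 and 231 CPM. Of the macrophage markers, 1 of 24 was listed at 0 in all 6 libraries. The CL-treated wild type had 1498 to 1691 CPM of the macrophage markers and the saline knockout 2509.9 to 2654 CPM. The part of these cells in the lower share of adipocyte reads, and in the higher levels of Lipa, Abcg1, Soat1, Nceh1, Ucp2, Plin2, Gatm and Tmem26, was not tested.

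Proliferation genes were above normal in 30 of 30 (median log2 fold change 2.14), for example Tpx2 at 2.41, 2.84 and 2.1 against 21.5, 17.4 and 18.1 CPM. CL called 27 of the 30 higher in the wild type too. Endothelial markers were below normal in 17 of 20 (sums of 1845 to 1896 CPM against 1055 to 1273 CPM), mesothelial markers in 12 of 15 and smooth muscle markers in 8 of 14. CL in the wild type called 15 of the 15 mesothelial markers lower, against 17.1% of all tested genes. Their sums were 237 to 260 CPM there and 279 to 361 CPM in the CL-treated knockout. In the wild type CL called 2 of the 20 endothelial markers lower and 6 higher, and 3 of the 14 smooth muscle markers lower and 2 higher. Fibroblast markers were above in 8, at in 8 and below in 4 of 20. Among those above, the collagen gene Col3a1 was 2.45-fold and the growth factor receptor gene Pdgfra 1.78-fold higher. The lowest of those below had a log2 fold change of -1.69. Summed fibroblast markers were lower, at 14546 to 15520 CPM in the saline wild type and 11197 to 13050 CPM in the CL-treated knockout. All 15 tested duct epithelium markers were undetermined, with a median log2 fold change of -1.11. Without saline wild-type library 1, which carries the duct reads, 2 were above and the median was 0.90, and without saline wild-type library 2 there were 2 below.

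The bases before the start site are shown for 1 gene of each outcome, Ucp1 above, Atp5b at and Adipoq below normal, since a cyclic AMP signal can act through response elements there. The windows are the 250 bases before the RefSeq start in GRCm38.p6, plus strand: chr8:83290098-83290347 for Ucp1, chr10:128083057-128083306 for Atp5b and chr16:23146286-23146535 for Adipoq. Capitals mark TGACG, the half-site of the cyclic AMP response element, on either strand.
Ucp1: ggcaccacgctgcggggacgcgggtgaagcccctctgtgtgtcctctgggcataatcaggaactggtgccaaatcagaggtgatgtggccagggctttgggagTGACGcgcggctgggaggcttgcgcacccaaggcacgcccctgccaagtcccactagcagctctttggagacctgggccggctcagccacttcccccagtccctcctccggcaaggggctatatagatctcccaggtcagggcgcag
Atp5b: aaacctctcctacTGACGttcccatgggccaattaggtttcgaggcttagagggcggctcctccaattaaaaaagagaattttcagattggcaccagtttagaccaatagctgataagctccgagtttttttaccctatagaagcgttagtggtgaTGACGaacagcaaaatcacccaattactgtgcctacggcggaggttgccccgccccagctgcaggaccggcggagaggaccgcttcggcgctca
Adipoq: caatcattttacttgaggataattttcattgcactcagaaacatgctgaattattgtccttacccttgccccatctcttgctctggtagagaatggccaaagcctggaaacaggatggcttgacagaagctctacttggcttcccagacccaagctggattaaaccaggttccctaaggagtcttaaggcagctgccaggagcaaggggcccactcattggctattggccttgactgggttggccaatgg
The Ucp1 window held 1 copy of TGACG, the Atp5b window 2 and the Adipoq window 0. The search on either strand also covered AAGGTCA, the extended half-site of estrogen-related receptors, and CACGTG, the E-box core, and none of the 3 windows held one.

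Over the whole table, TGACG was in 20.8% of 32851 windows of 300 bases (250 before and 50 after a start), AAGGTCA in 4.72% and CACGTG in 7.15%. For the oxidative phosphorylation genes, 72 windows of 67 matched genes held TGACG in 36.1%, AAGGTCA in 12.5% and CACGTG in 9.72%. For the tricarboxylic acid cycle genes the shares over 35 windows were 48.6%, 5.71% and 17.1%. The 37 windows of 31 thermogenic effectors held them in 27%, 5.41% and 10.8%. The 26 windows of 17 mature adipocyte genes held them in 7.69%, 3.85% and 3.85%, and the 23 windows of 18 branched-chain amino acid genes in 17.4%, 0% and 4.35%. These are letter matches in windows of fixed length, several of which can belong to 1 gene, and no binding was measured.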

How the data were processed

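RNA was sequenced from 12 libraries in 4 groups of 3, of which 6 are compared here and all 12 entered the fit. The deposited files hold read counts per gene made by the authors with STAR and HTSeq on GRCm38, per the submitters' processing notes, with no versions given. The names of the files mark reverse-strand counting. Genes that overlap on one strand, and near-identical copies, may still share reads. The 5 summary lines of each file (12.5% to 17.2% of reads) were dropped. Of 53379 gene identifiers, 53274 matched GENCODE M21.

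Counts were filtered with filterByExpr (minimum count 10), scaled by TMM and tested with edgeR 4.0.16 in R 4.3.3 (quasi-likelihood, 8 residual degrees of freedom, biological coefficient of variation 11.5%), with Benjamini-Hochberg adjustment over 16554 genes and a threshold of 0.05. CPM values use TMM library sizes. Fold changes come from the fit, and SE is the log2 fold change divided by the root of F. The script was tested on simulated data. Depth was 21892817 to 27985019 counts. Counting error takes a larger part of the spread between libraries the fewer reads a gene has, so it matters for genes of a few CPM. p-values measure the spread between libraries of pooled mice.

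The gene lists and the members described were chosen with earlier results of these data known, so counts over lists are descriptions. Of 546 list members, 30 were not tested, 16 of them with 0 counts in every library (Cox4i1 among them), which says nothing of their expression. Genes were named by rule: the 12 largest changes each way, up to 5 members per list and direction by adjusted p, up to 4 members per list at the normal level by CPM, the most abundant member of each list, and a fixed set of well-known genes. Some genes that this rule names are not reported here. Alternatives were DESeq2 1.42.0, other scalings and filters, fewer libraries, a replicate block, and a narrower and a wider margin.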

Additional observations from a re-analysis of the deposited data

How the results depend on the processing

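Of 371 named genes, 291 kept their call under all alternatives run and 80 changed it under at least 1. The counts of adipocyte, lipid and thermogenic genes above and below normal stayed within 1.5 times of their value under all alternatives, apart from adipocyte genes above (8, range 5 to 9 with 1 library left out). Mitochondrial genes above normal numbered 34, and 53 with library-size scaling alone, 18 with only the 6 compared libraries and 17 to 63 with 1 library left out. With the narrower margin tried in place of 1.5-fold, genes at the normal level numbered 7 (adipocyte), 17 (lipid) and 85 (mitochondrial). The number at the normal level thus depends on the margin chosen. Counts for thermogenic genes, and those under the wider margin, are not given here. Requiring 2-fold as well left 1699 genes higher and 1205 lower of 4364 and 4009. Library-size scaling alone gave 5137 higher and 3353 lower, with the median of all genes at 0.07. The sign of the log2 fold change turned for Ighm (0.87, adjusted p = 0.186), to -0.55 without CL-treated knockout library 2 (adjusted p = 0.0264, range -0.55 to 1.2503 with 1 library left out); the cause was not tested. Replicate numbers in the titles were not used as pairs in the main fit. Deviations of same-numbered libraries correlated between -0.355 and 0.176, and those of differently numbered libraries between -0.416 and 0.366. Deviations within a group of 3 libraries depend on each other, so these values cannot show whether the libraries were paired. With a replicate block, 4170 genes were higher and 3803 lower. Genes below about 1 CPM, such as Fgf21 or Cox6a2, rest on few counts.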

Other observations

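Immunoglobulin messages differed among the CL-treated knockout libraries. Ighm was at 708, 459 and 709.8 CPM in the saline wild type and 407, 2575 and 459.9 CPM in the CL-treated knockout, and Jchain, the joining chain of secreted antibodies, at 14.9, 27.1 and 20.8 and 30, 314 and 85.9 CPM. Library 2 held the highest value of both, and the Jchain log2 fold change of 2.78 ± 0.62 was 1.44 without it. Mzb1, a plasma cell gene, was at 0.64, 0.801 and 0.356 and 0.52, 26.4 and 1.6 CPM, and its call (log2 fold change 3.997 ± 1.08, adjusted p = 0.00762) was lost without library 2 (0.78, adjusted p = 0.191). Of the 13 tested neutrophil, mast cell and eosinophil markers, 11 were above normal, 1 below and 1 undetermined, against 26.4% of all tested genes above. The mast cell genes Cpa3 and Cma1 were higher in all 3 libraries. Cpa3 was at 7.87, 6.72 and 8.18 against 29.7, 26.1 and 26.8 CPM (adjusted p = 7.03e-08). Cma1 was at 7.19, 5.8 and 8.47 against 28.3, 25.6 and 25.3 CPM (adjusted p = 1.76e-05). Il7r, the interleukin-7 receptor, was at 3.01, 3.88 and 3.02 against 187, 108 and 137 CPM. It was the only 1 above normal of the 15 tested T and natural killer cell markers, with 12 undetermined, 1 at and 1 below. The marker below was Cd2. Its call was lost without saline wild-type library 2 or 3 or CL-treated knockout library 1 or 3 (log2 fold changes -0.66 to -0.80). Of the 15 T and natural killer cell markers, 4 were above normal without CL-treated knockout library 1. There were 2 above with DESeq2, library-size scaling alone, no filter on low counts or only the 6 compared libraries. Csf3r, the receptor of granulocyte colony-stimulating factor, was at 7.27, 7.57 and 7.86 against 48.1, 42.6 and 42.3 CPM (adjusted p = 1.18e-09).

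Muscle reads varied among the saline wild-type libraries: Acta1, skeletal alpha-actin, was at 25.6, 69.3 and 35.4 CPM there and at 2.18, 0.706 and 1.07 CPM in the CL-treated wild type. Alb (albumin) was at 125, 19.2 and 47.9 CPM in the saline wild type. Their low values in the CL-treated knockout (4.09, 2.91 and 4.18 CPM and 1.56, 8.21 and 1.16 CPM) therefore stand against a reference that itself spans several-fold.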
